A study of Mus musculus with 2 samples.

Results

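The interleukin genes of the mouse dorsal meninges were taken as every feature whose symbol begins with Il followed by a digit, a rule that used names and no measured value. It gave 85 of 32285 features and 83 symbols, since Il11ra2 was listed on 3 features. By role the members comprised 37 ligands, 40 receptor chains, 6 antagonists or decoy receptors and 2 others, namely Il4i1, an amino acid oxidase, and Il1bos, an antisense transcript of the Il1b locus.

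Interleukins are secreted signals that pass between immune cells and the stromal cells around them, and most act on a receptor of at least a pair of chains. Some chains are shared by several receptors, such as the common gamma chain Il2rg, used by the receptors for IL-2, IL-4, IL-7, IL-9, IL-15 and IL-21, and gp130, encoded by Il6st, used by those for IL-6, IL-11 and IL-27. In barrier tissues, the meninges among them, IL-33 is kept in the nuclei of stromal cells and on its release acts through its receptor ST2, encoded by Il1rl1, on group 2 innate lymphoid cells (ILC2), T helper 2 (Th2) cells, regulatory T cells and mast cells.

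Both groups were male C57BL/6 mice of 10 weeks (10 to 12 in the age label). The Sham group had a sham procedure and the TBI group a mild traumatic brain injury to the closed skull, and tissue was taken 1 week later. The dorsal meninges of 5 mice were pooled in each group, digested with collagenase, sorted for single live cells and made into 1 droplet library per group. With 1 library per group no difference between Sham and TBI could be tested, and no p-value is given. The intervals below, all at 95%, treat each UMI (for shares, each cell) as an independent count. They cover counting error only, and not variation between cells, between mice or in handling. They are therefore too narrow where a few cells hold most UMIs of a gene.

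After the cell limits, 2043 Sham cells and 3773 TBI cells remained, with a median of 2764 and 2663 unique molecular identifiers (UMIs, counted transcript molecules) per cell and ranges of 502 to 29604 and 501 to 28432. Clustering that used no Il gene gave 28 clusters, which were joined into 19 classes named from marker genes that include no interleukin gene, such as Col1a1 for fibroblast-like and Ncr1 for NK-like cells. A share of 3.52% of Sham and 4.61% of TBI cells stayed in unnamed clusters. Choroid plexus-like and pineal gland-like cells were among the classes, so the cells were not all meningeal. Of the kept cells 33 in Sham and 114 in TBI were predicted doublets and were left in. The libraries had 14 barcode strings of kept cells in common. Levels are given as the CPM of a gene, its UMIs divided by all UMIs of the class in that library times 1000000, and were compared between classes for each gene, never between genes, and in such sums fewer expressing cells and less RNA per cell cannot be told apart.

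The members held 34368 UMIs, or 0.164% of the Sham and 0.154% of the TBI total. At least 20 UMIs were found for 51 members (14 ligands, 33 receptor chains, 3 antagonists or decoys and Il4i1), 16 had 1 to 19 UMIs and 18 had none. For each of the 51 the leading class was the one with the highest CPM over both libraries. The same class led in both libraries for 37 of the 51, whereas this held for 47.9% of all 14782 features with as many UMIs. A stricter rule, the same leading class in both libraries with at least 4 times the CPM of the next class, was met by 12 of the 51 against 11.3% of all such features. The 12 comprised 3 ligands (Il33, Il1b and Il12b), 6 receptor chains (Il1rl1, Il17rb, Il9r, Il23r, Il17re and Il11ra1), both neutrophil-led antagonists (Il1rn and Il1r2) and Il4i1. The ILC2 or Th2-like class led for 9 members, monocyte-like and migratory dendritic-like cells for 7 each, and gamma-delta or Th17-like cells for 6.

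**Figure D1:**
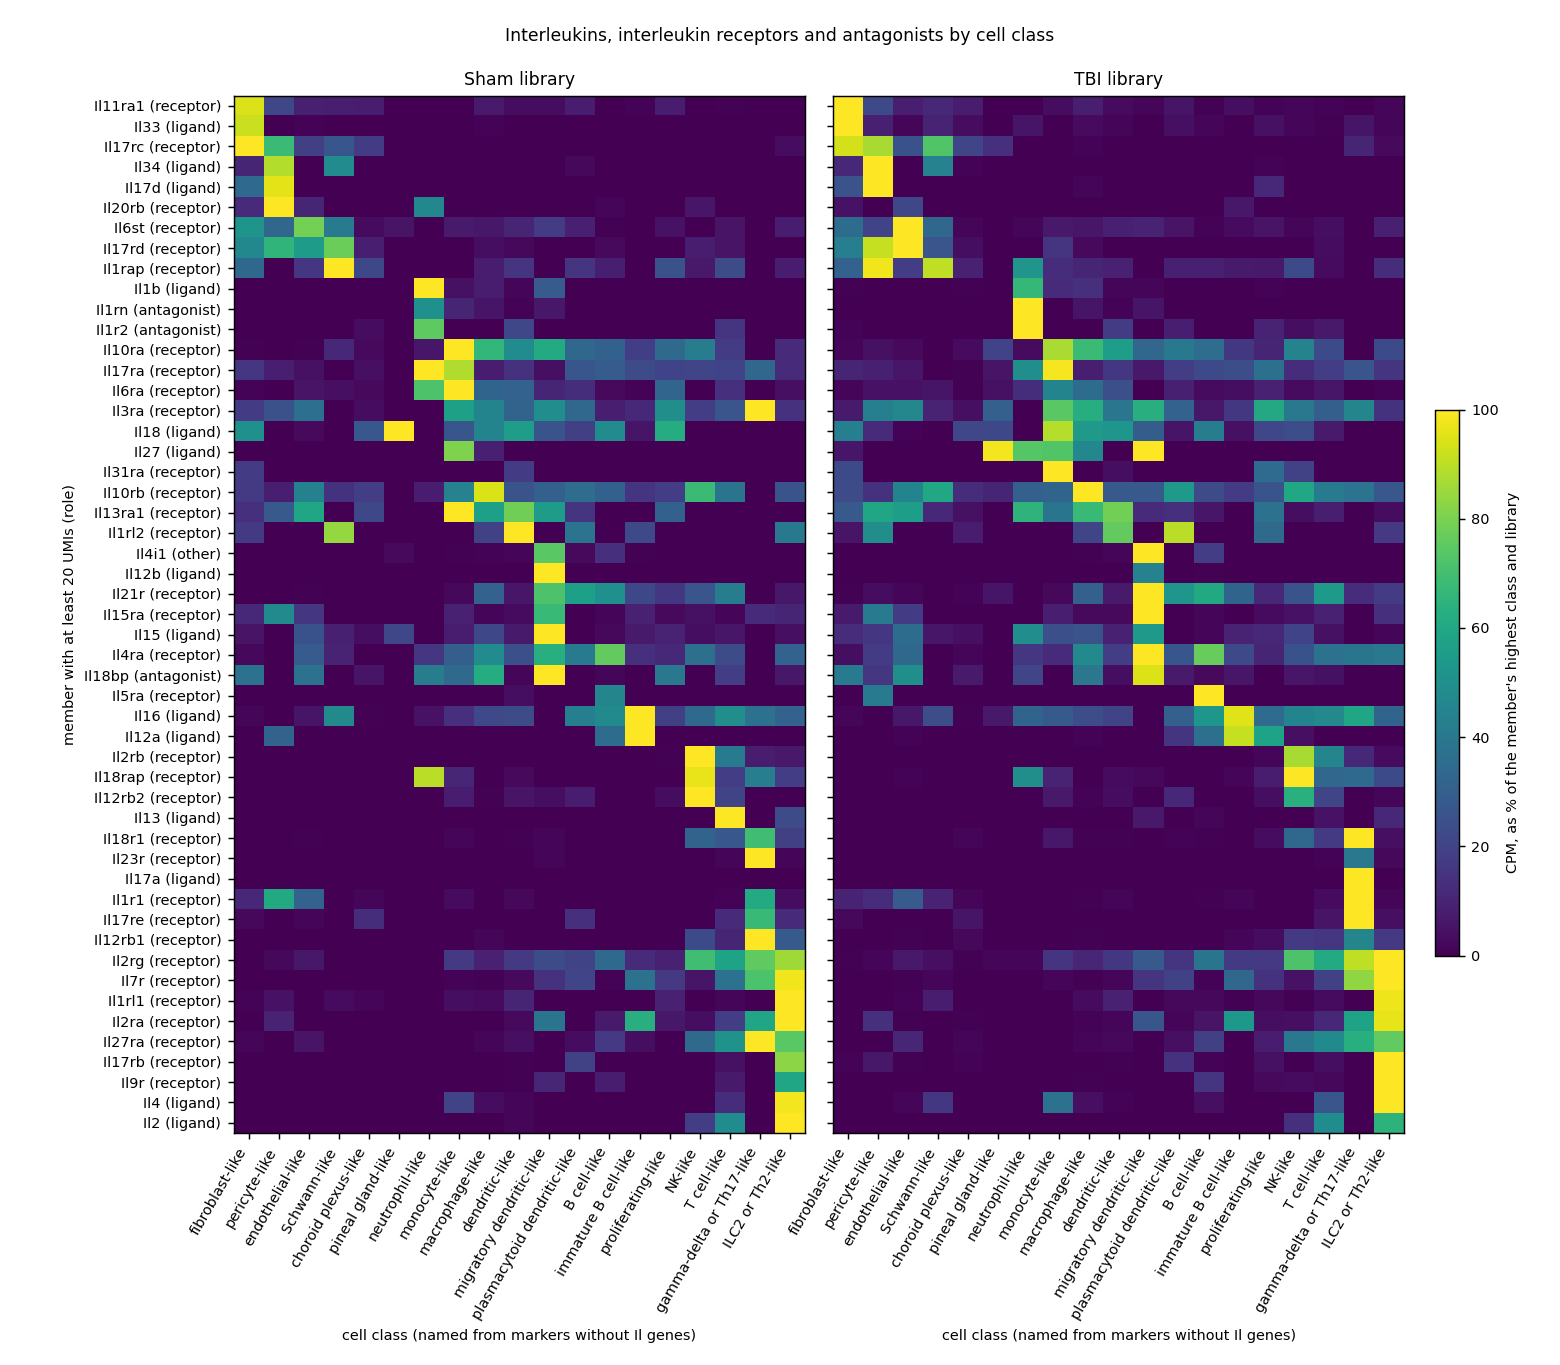
Level of each of the 51 members with at least 20 UMIs (rows, with role) in the 19 cell classes (columns) of the Sham library on the left and the TBI library on the right, as a percentage of the member's highest CPM over both panels. The rows are ordered by leading class, so the bright cells run from fibroblast-like at the upper left to ILC2 or Th2-like at the lower right in both libraries, and Il33 and Il12b each have 1 bright column.

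The receptor chains Il1rl1, Il17rb and Il9r led in the ILC2 or Th2-like class, 130 Sham and 139 TBI cells that carried Gata3 (717 CPM in Sham and 739 in TBI), the factor that specifies both ILC2 and Th2 cells. Il1rl1 (ENSMUSG00000026069), the IL-33 receptor, Il17rb (ENSMUSG00000015966), a chain of the IL-25 receptor, and Il9r (ENSMUSG00000020279), the specific chain of the IL-9 receptor, each met the strict rule in this class. Their promoters (250 bases before to 50 bases after the start, RefSeq, build GRCm38.p6, printed 5′ to 3′ on the gene's strand) are shown because these 3 receptor genes share a leading class whose defining marker is a GATA factor. Capitals mark AGATAA on either strand, a form of the GATA motif. The Il1rl1 windows are chr1:40429320-40429619 and chr1:40439379-40439678 on the plus strand, that of Il9r is chr11:32200230-32200529 on the minus strand, and that of Il17rb is chr14:30008847-30009146 on the minus strand.
Il1rl1, first start: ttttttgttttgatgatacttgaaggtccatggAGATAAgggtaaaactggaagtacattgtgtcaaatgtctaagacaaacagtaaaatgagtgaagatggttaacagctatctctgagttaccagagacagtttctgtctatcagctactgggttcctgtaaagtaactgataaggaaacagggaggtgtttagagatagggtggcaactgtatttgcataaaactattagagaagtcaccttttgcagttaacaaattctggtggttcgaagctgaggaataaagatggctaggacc
Il1rl1, second start: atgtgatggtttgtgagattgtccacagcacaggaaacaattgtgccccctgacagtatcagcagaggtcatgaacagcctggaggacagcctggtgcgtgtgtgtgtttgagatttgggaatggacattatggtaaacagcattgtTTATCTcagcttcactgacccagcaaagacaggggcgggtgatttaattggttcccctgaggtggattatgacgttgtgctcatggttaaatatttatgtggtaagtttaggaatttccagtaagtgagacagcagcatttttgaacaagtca
Il9r: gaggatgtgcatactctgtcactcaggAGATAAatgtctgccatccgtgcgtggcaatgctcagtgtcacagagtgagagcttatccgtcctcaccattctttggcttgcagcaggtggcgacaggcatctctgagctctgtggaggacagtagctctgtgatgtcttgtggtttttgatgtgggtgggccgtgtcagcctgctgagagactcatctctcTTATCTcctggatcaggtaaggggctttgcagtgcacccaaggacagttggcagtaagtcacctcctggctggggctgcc
Il17rb: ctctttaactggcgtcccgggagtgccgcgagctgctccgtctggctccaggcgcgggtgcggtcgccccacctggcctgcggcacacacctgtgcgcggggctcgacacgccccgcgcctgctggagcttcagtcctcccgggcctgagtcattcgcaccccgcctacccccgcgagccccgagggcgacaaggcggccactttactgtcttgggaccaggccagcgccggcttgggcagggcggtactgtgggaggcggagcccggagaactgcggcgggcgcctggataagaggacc
The motif began 217 and 103 bases before the starts of Il1rl1 and 223 and 30 bases before that of Il9r, and these letters were not in the Il17rb window. They were in 11.2% of all 32851 promoters of the same length. Among the members with at least 20 UMIs, 42 of 51 had a promoter in the table, and 7 of their 55 promoters (12.7%) held the motif. Among members led by the ILC2 or Th2-like class, 3 of 10 promoters held it, from 2 of 8 genes. A match describes letters in a window and is not a binding site.

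Il1rl1 in the ILC2 or Th2-like class was at 496 CPM in Sham (420 to 582, 150 UMIs) and 483 CPM in TBI (414 to 559, 177 UMIs). The level was 10.2 times that of the next class, dendritic-like cells (50.5 and 45.4 CPM), and 52.2% of all Il1rl1 UMIs fell in the class. The TBI over Sham log2 ratio was -0.04 (-0.36 to 0.29), so the libraries could not be told apart. A UMI of Il1rl1 was found in 51.5% of these cells in Sham and 61.9% in TBI at median depths of 1621 and 2874 UMIs. With each cell thinned to 1000 UMIs, which kept 77 of 130 and 104 of 139 cells, the shares were 36.4% and 40.4%. In choroid plexus-like cells, which should lack it, 1.67% of Sham and no TBI cell had one, and none after thinning, at median depths of 3000 and 3542 UMIs. In dendritic-like cells with a UMI of Xcr1 or Clec9a, markers of type 1 conventional dendritic cells, Il1rl1 was at 28.3 CPM, against 57.3 CPM in the other dendritic-like cells.

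Il17rb was at 106 CPM in Sham (72.4 to 149) and 128 CPM in TBI (94.2 to 171), 5.67 times the next class, plasmacytoid dendritic-like cells. Il9r was at 62.8 CPM in Sham (37.8 to 98.1, 19 UMIs) and 106 CPM in TBI (75.6 to 145, 39 UMIs), 7.67 times the next class, B cell-like cells. Its log2 ratio was 0.74, with an interval from -0.07 to 1.63 that includes 0. The share of cells with Il9r was 12.3% in Sham and 23.7% in TBI, and 7.79% and 9.62% after thinning. No choroid plexus-like cell had Il9r in either library.

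Il7r, the IL-7 receptor alpha chain that sustains lymphocytes, was highest in the same class at 1084 CPM in Sham and 1110 CPM in TBI, followed closely by gamma-delta or Th17-like cells at 795 and 926 CPM. Il2ra, the alpha chain of the high-affinity IL-2 receptor, was at 238 and 229 CPM, ahead of gamma-delta or Th17-like (140 and 138 CPM) and immature B cell-like cells (149 and 127 CPM). The common gamma chain Il2rg was at 1011 CPM in Sham and 1178 CPM in TBI, and NK-like, T cell-like and gamma-delta or Th17-like cells lay between 685 and 1064 CPM, so no single class stood apart. Il27ra, which restrains type 2 lymphocytes, was at 139 and 142 CPM and was level with gamma-delta or Th17-like cells (1.01 times over both libraries).

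Counting Il1rl1, Il17rb, Il9r, Il2ra and Il7r together, 81 of 130 Sham cells (62.3%) and 109 of 139 TBI cells (78.4%) of the class had at least 2 of the 5 receptors. After thinning these were 29 of 77 (37.7%) and 42 of 104 (40.4%). By T cell receptor complex genes, 48 cells of the class had a UMI of a Cd3 gene and 221 had none. A single UMI, or its absence at this depth, does not set T cells apart from ILC2. In those without Cd3, Il1rl1 was at 526 CPM and Il17rb at 130 CPM, and in those with Cd3 they were at 296 and 55.4 CPM. Il18r1 had the opposite order, 32.1 CPM without and 102 CPM with Cd3.

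**Figure D2:**
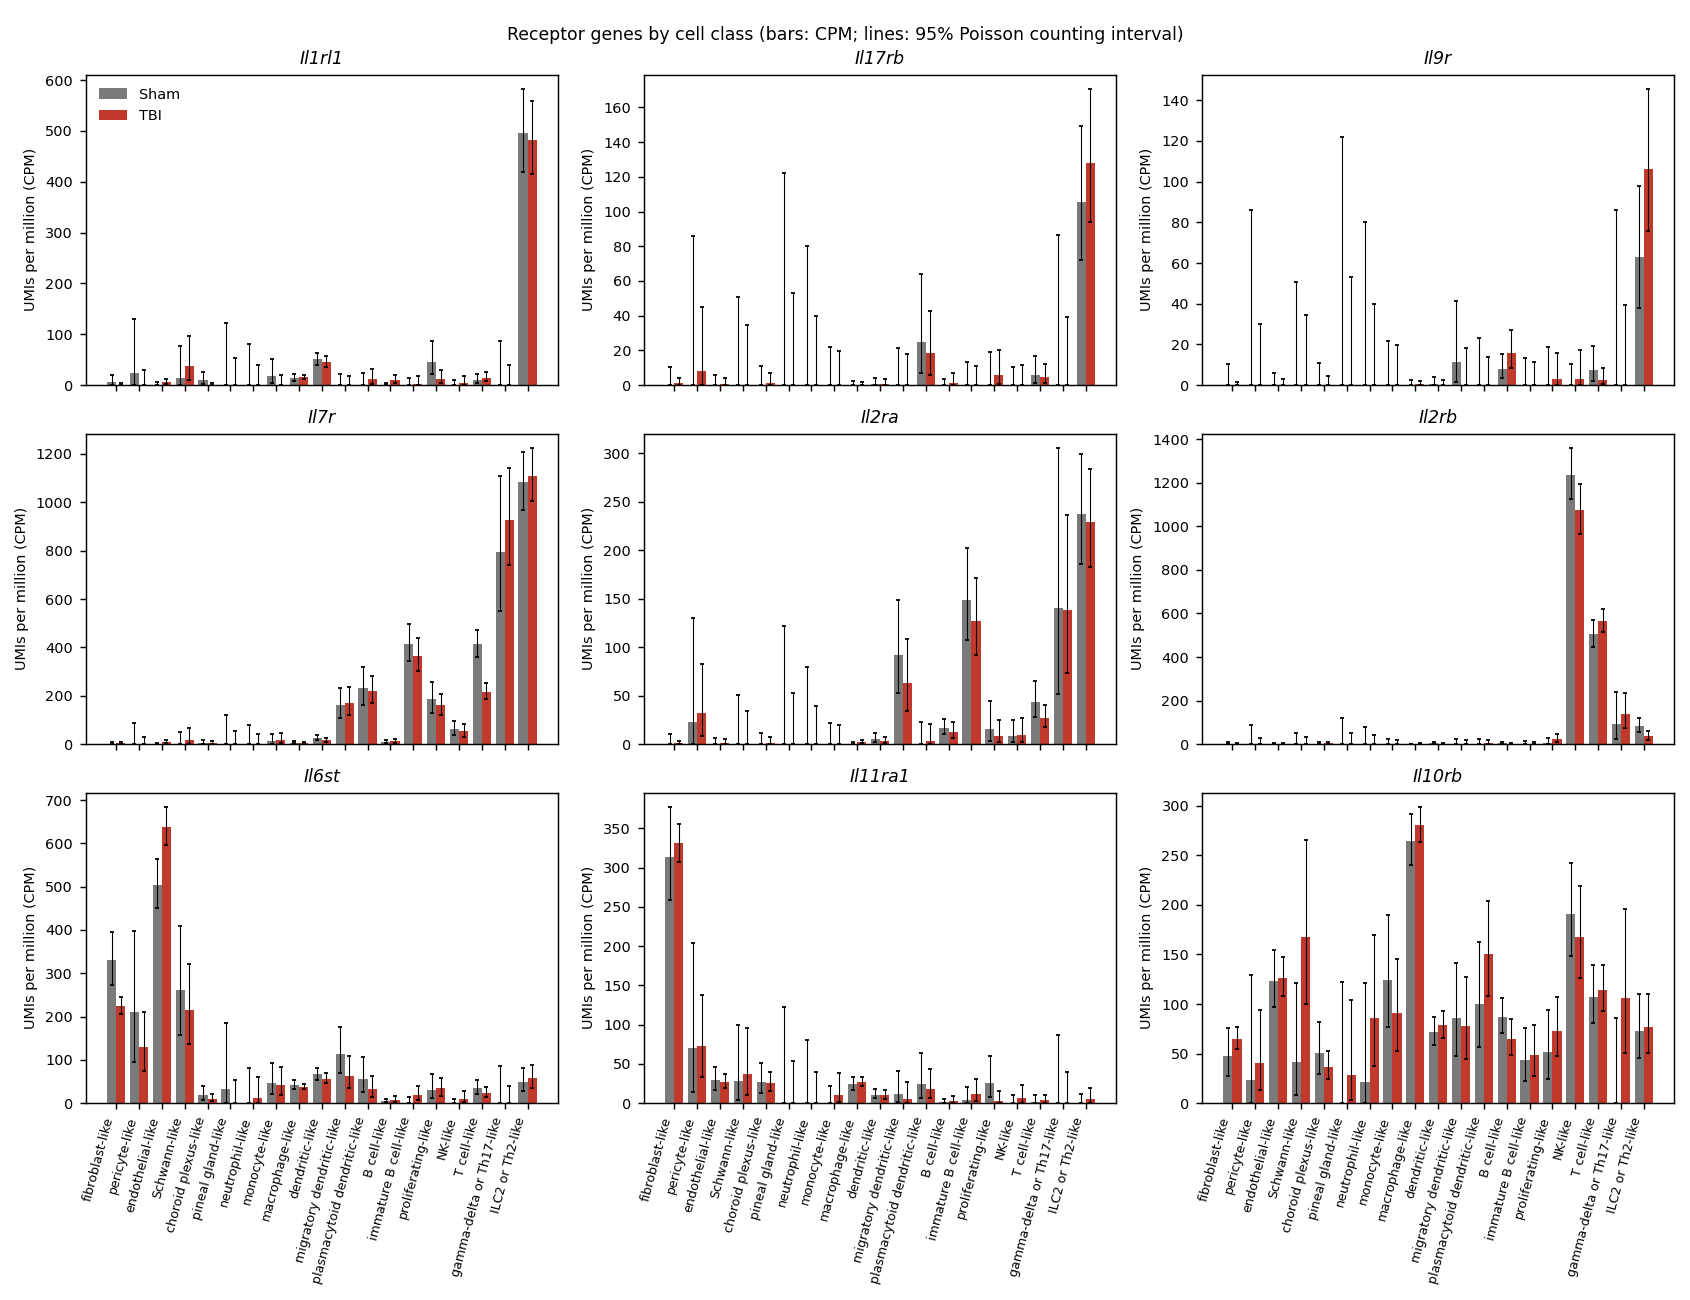
CPM of 9 receptor genes (panels) in the 19 cell classes (horizontal axis), in grey for Sham and red for TBI, with black lines for 95% Poisson counting intervals. Il1rl1, Il17rb and Il9r stand highest in ILC2 or Th2-like cells, Il2rb in NK-like cells, Il6st in endothelial-like cells and Il11ra1 in fibroblast-like cells, while Il7r and Il10rb are spread over several classes.

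The type 2 ligands were scarce. Il4, which drives IgE class switching and Th2 differentiation, had 78 UMIs and was highest in ILC2 or Th2-like cells at 56.2 CPM in Sham and 57.3 CPM in TBI (log2 ratio 0.02, -0.97 to 1.04). Il5, the eosinophil factor, had 9 UMIs, 4 in Sham and 5 in TBI, all in this class. Il13 had 51 UMIs, of which 37 came from 1 T cell-like Sham cell that also carried Cd3e, Cd4, Trac, Gata3 and 2 Il4 UMIs. T cell-like cells therefore gave 38 Il13 UMIs in Sham and 3 in TBI, a log2 ratio of -4.13 (-6.68 to -2.68) that became -0.69 (-6.98 to 5.61) without the top cell of each library. Il9 had no UMI. Il2, the T cell growth factor, had 62 UMIs, at 46.3 and 30.0 CPM in ILC2 or Th2-like and 22.6 and 22.4 CPM in T cell-like cells. Il6 had 17 UMIs, 10 of them in ILC2 or Th2-like cells. No class was named for mast cells or basophils. Cells with at least 3 mast cell markers numbered 4 in Sham and 12 in TBI and held 11 Il1rl1 UMIs, and 5 TBI cells had basophil markers with Mcpt8 and held 4 Il4 UMIs.

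Il33 transcripts lay mostly in fibroblast-like cells. Il33 was at 172 CPM in Sham fibroblast-like cells (132 to 220, 62 UMIs) and 187 CPM in TBI (169 to 206, 419 UMIs), and 89.9% of its UMIs fell in this class. The next class, pericyte-like cells, was 15.4 times lower on 2 UMIs. The TBI over Sham log2 ratio was 0.11 (-0.27 to 0.53). The share of fibroblast-like cells with Il33 was 28% in Sham and 29.1% in TBI at median depths of 2268 and 2262 UMIs, and 14% and 15.2% after thinning. Of B cell-like cells, which should lack it, 0 of 369 Sham and 2 of 288 TBI cells had Il33. Within fibroblast-like cells the cluster led by Ptgds, Fmod and Dcn was at 167 and 213 CPM and the cluster led by Snhg11, Foxp2 and Bnc2 at 186 and 112 CPM, and neither ratio's interval excluded 0. Fibroblast-like cells were 5.78% of Sham and 20.1% of TBI cells, and the Il33 UMIs of the class numbered 62 and 419, whereas the CPM did not differ beyond counting error.

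**Figure D3:**
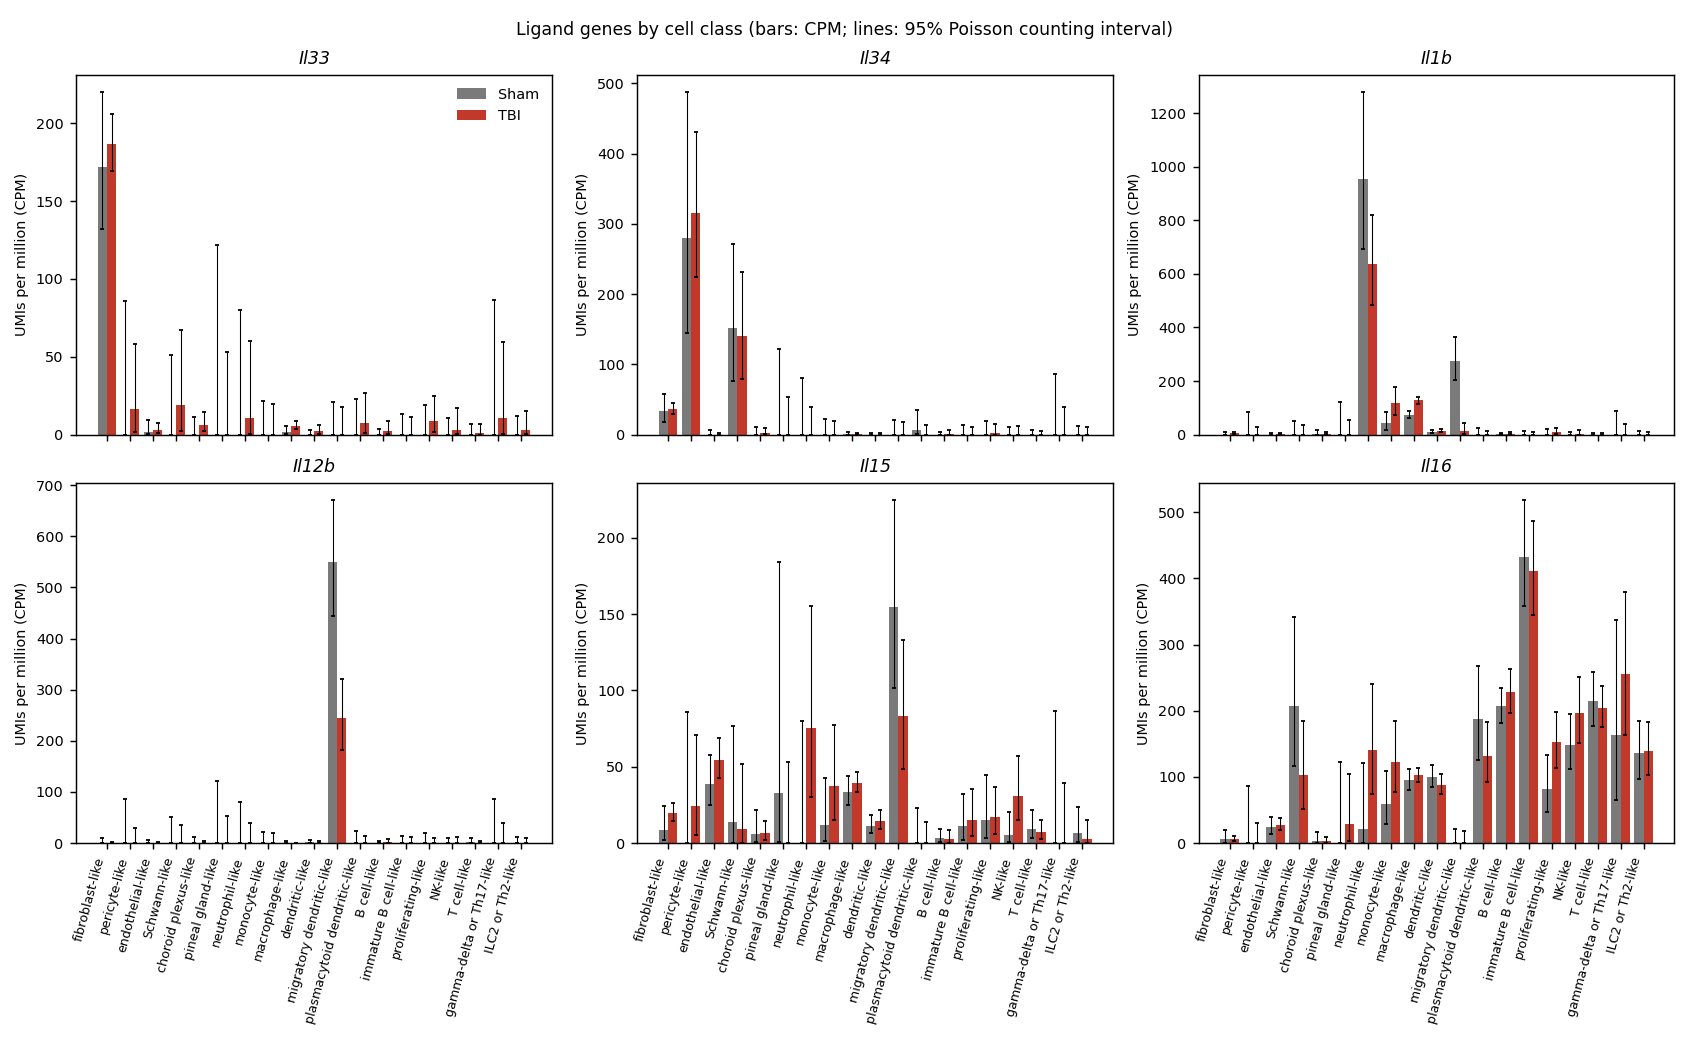
CPM of 6 ligand genes (panels) in the 19 cell classes (horizontal axis), in grey for Sham and red for TBI, with black lines for 95% Poisson counting intervals. Il33 stands out in fibroblast-like, Il34 in pericyte-like and Schwann-like, Il1b in neutrophil-like and Il12b in migratory dendritic-like cells, whereas Il16 is present in most leukocyte classes and peaks in immature B cell-like cells.

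Il34, a ligand of the macrophage receptor Csf1r, was highest in pericyte-like cells at 279 CPM in Sham (144 to 488) and 316 CPM in TBI (224 to 431), with Schwann-like cells next at 152 and 140 CPM. Both classes were small (23 pericyte-like and 35 Schwann-like cells in Sham, 71 and 46 in TBI), and fibroblast-like cells at 33.3 and 36.6 CPM held 94 of the 183 Il34 UMIs. Il17d had 23 UMIs, 17 of them in fibroblast-like cells. Il11 had 14 UMIs, 10 of them in fibroblast-like cells. Il17b had 3 UMIs, all in Schwann-like TBI cells.

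The lead of a stromal class over the next class differed between receptor chains. Il11ra1, the IL-11 receptor, was at 313 CPM in Sham and 331 CPM in TBI fibroblast-like cells, 4.56 times the pericyte-like level, and was found in 46.6% of these cells in both libraries. Among B cell-like cells 0.271% of Sham and 0.694% of TBI cells had it. The 3 features named Il11ra2, near-identical copies of Il11ra1, were all at 0, and reads shared by the copies may not have been counted. Il17rc, a chain of the IL-17A receptor, was at 103 and 95.9 CPM in fibroblast-like cells, close to pericyte-like cells (1.15 times). Il17rd was led by endothelial-like cells at 19.5 and 35.6 CPM and was level with pericyte-like cells (1.01 times). Il1rap, the shared accessory chain of the IL-1 and IL-33 receptors, had 131 UMIs spread thinly and led by Schwann-like cells on 7 UMIs. Il20rb, with 29 UMIs, was led by pericyte-like cells on 2 UMIs, whereas endothelial-like cells held 16.

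Il6st was highest in endothelial-like cells at 505 CPM in Sham (450 to 564, 311 UMIs) and 638 CPM in TBI (596 to 683, 844 UMIs), a log2 ratio of 0.34 (0.15 to 0.53). Within this class it was concentrated in the cluster led by Vwf, Slco2a1 and Selp, genes of venous endothelium, at 1705 CPM in Sham and 1591 CPM in TBI, while the other endothelial-like clusters lay between 189 and 624 CPM. That cluster was 54 of 308 endothelial-like cells in Sham and 141 of 580 in TBI. Inside the clusters the log2 ratios ran from -0.40 to 0.35, and the interval of each included 0. Of B cell-like cells 1.08% in Sham and 2.08% in TBI had Il6st. Fibroblast-like cells had 330 and 225 CPM, a log2 ratio of -0.55, and in their Ptgds, Fmod and Dcn cluster the ratio was -0.68 (-0.99 to -0.35), while in the Snhg11, Foxp2 and Bnc2 cluster Il6st was at 175 and 184 CPM (0.03, -0.70 to 0.93). Il1r1, the signalling IL-1 receptor, was led by gamma-delta or Th17-like cells (117 and 191 CPM on 5 and 18 UMIs), and among endothelial-like clusters it was highest, at 197 and 220 CPM, in the one led by Slc38a5, Slco1a4 and Cldn5, genes of barrier-type brain endothelium.

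In the IL-1 family, Il1b and the genes that limit IL-1 led in the same cells. Il1b was at 954 CPM in Sham neutrophil-like cells (693 to 1281, 44 UMIs in 16 cells) and 637 CPM in TBI (485 to 821, 59 UMIs in 26 cells), a log2 ratio of -0.59 (-1.17 to 0.01). Il1rn, the IL-1 receptor antagonist, was at 86.7 and 173 CPM, 13.7 times the next class, and Il1r2, the decoy receptor, at 65.0 and 86.3 CPM, 4.78 times the next class. These rest on 20 and 11 UMIs, and Il1r2 in Sham on 3, the level that a count of 0 allowed in that class. By number more Il1rn UMIs (50) were found in macrophage-like and more Il1r2 UMIs (50) in dendritic-like cells. Il1f9 had 13 UMIs, all in neutrophil-like cells. Choroid plexus-like cells had an Il1b UMI in 1.67% of Sham and 2.24% of TBI cells, and in none after thinning, against 33.3% of neutrophil-like cells in both libraries.

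Macrophage-like cells, being many, held most Il1b UMIs, 114 in Sham and 447 in TBI, at 74.2 and 127 CPM. The log2 ratio was 0.77 (0.48 to 1.09), and 0.82 (0.50 to 1.15) without the top cell of each library. In the cluster led by Fcgr4, Slamf9 and Cx3cr1 Il1b was at 85.1 CPM in Sham and 173 CPM in TBI (log2 ratio 1.01, 0.64 to 1.41), and in the cluster led by Folr2, Cd209f and Fcrls at 66.4 and 92.1 CPM (0.46, -0.05 to 1.02). The share of macrophage-like cells with Il1b was 11.6% in Sham and 14.5% in TBI at median depths of 2901 and 4412 UMIs, and 3.16% and 7.23% after thinning. Monocyte-like cells had 41.4 and 118 CPM on 7 and 22 UMIs (1.44, 0.23 to 2.98). Migratory dendritic-like cells went the other way with 48 and 3 UMIs, of which 40 came from 1 Sham cell. Of 14 dissociation-induced genes such as Fos and Jun, tested together in macrophage-like cells, 12 had a ratio above 0 and their median log2 ratio was 0.24. Of all genes in the class, 5122 of 9721 had a ratio above 0, with a median of 0.02. The part of the dissociation-induced genes in the Il1b difference was not tested.

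Il18, activated by the inflammasome, was broadly spread. Over both libraries it was highest in monocyte-like cells, at 17.7 CPM in Sham and 58.8 CPM in TBI. That lead rests on 3 and 11 UMIs, with a log2 ratio of 1.57 (-0.19 to 4.21). Il18 was at 37.0 and 34.8 CPM in dendritic-like, 29.9 and 35.6 CPM in macrophage-like and 31.9 and 28.1 CPM in B cell-like cells. The IL-18 receptor chains were each highest in a lymphocyte class. Il18r1 was highest in gamma-delta or Th17-like cells at 281 and 404 CPM, then NK-like cells at 129 and 137 CPM. Il18rap was highest in NK-like cells at 210 and 218 CPM and was next highest in neutrophil-like cells at 195 and 108 CPM. Il18bp, the binding protein that neutralises IL-18, led in migratory dendritic-like cells at 51.5 and 48.8 CPM, and in the Folr2, Cd209f and Fcrls macrophage-like cluster it was at 52.8 CPM in Sham and 21.8 CPM in TBI, a log2 ratio of -1.28 (-2.02 to -0.53), while in the Fcgr4, Slamf9 and Cx3cr1 cluster it was at 19.2 and 21.4 CPM (0.14, -0.72 to 1.11). Over both libraries Il1rl2, the IL-36 receptor, led in dendritic-like cells at 16.4 and 12.4 CPM, 1.23 times plasmacytoid dendritic-like cells, which led in TBI. Within dendritic-like cells Il1rl2 was at 4.04 CPM in cells with Xcr1 or Clec9a and 19.3 CPM in the others.

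The chains of IL-12 and of its receptor led in different classes, whereas both chains of the IL-23 receptor led in gamma-delta or Th17-like cells. Il12b, the p40 chain common to IL-12 and IL-23, was at 549 CPM in Sham and 244 CPM in TBI migratory dendritic-like cells, 290 times the next class, with 93.6% of its UMIs there. Of the 96 Sham UMIs 75 came from 1 cell and of the 50 TBI UMIs 33 came from 1 cell. That Sham cell was also the one with 40 Il1b UMIs, carried 70 Ccr7 UMIs and was not a predicted doublet. The log2 ratio of -1.16 (-1.69 to -0.66) became -0.55 (-1.57 to 0.43) without these. Il12a, the p35 chain, was highest elsewhere, in immature B cell-like (72.7 and 66.5 CPM) and B cell-like cells (25.7 and 26.9 CPM), and Il23a, the p19 chain, had no UMI. Il12rb2 was highest in NK-like cells at 157 and 99.6 CPM, and Il12rb1 in gamma-delta or Th17-like cells at 164 and 74.5 CPM on 7 UMIs in each library. Cells with a UMI of both receptor chains were most frequent among NK-like cells, 5.15% in Sham and 5.49% in TBI. Il27 had 37 UMIs, 26 of them in macrophage-like cells. By CPM, however, its leading class was monocyte-like cells, where its log2 ratio was -0.15.

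Il23r was at 397 CPM in Sham (232 to 636, 17 UMIs in 12 cells) and 160 CPM in TBI (89.3 to 263, 15 UMIs in 28 cells) in gamma-delta or Th17-like cells, 31.3 times the next class. The log2 ratio of -1.31 (-2.42 to -0.23) rests on these few cells, in which Trdc, a marker of the class, was at 865 and 968 CPM. Il17re, a chain of the IL-17C receptor, was at 93.5 and 138 CPM, 11.4 times the next class, on 4 and 13 UMIs. Il17a had 29 UMIs, all in TBI, of which 28 came from 1 cell and 1 from a second cell, both of them with Cd3e, Trdc and Cd163l1 and without Cd4. In Sham, 0 of 12 such cells had Il17a, and a count of 0 allowed up to 70.1 CPM there. Il17f, Il17c and Il22 had no UMI. Il17ra, the chain shared by the IL-17 receptors, was broad, with monocyte-like cells at 248 and 278 CPM ahead of neutrophil-like cells at 282 and 140 CPM over both libraries.

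Among the other chains of the gamma chain family, Il2rb, shared by IL-2 and IL-15, was at 1238 CPM in Sham NK-like cells (1125 to 1359) and 1073 CPM in TBI (963 to 1193), 2.14 times T cell-like cells at 505 and 566 CPM. Il15 was led by migratory dendritic-like cells at 154 and 82.9 CPM and was also found in endothelial-like (39.0 and 54.5 CPM) and macrophage-like cells (33.2 and 39.6 CPM), and Il15ra, which presents IL-15 to its target cells, had the same lead at 132 and 195 CPM. Il21r and Il4ra were led by migratory dendritic-like cells too, at 183 and 254 CPM and at 85.8 and 137 CPM, each followed by B cell-like cells (128 and 154 CPM, and 104 and 105 CPM). Il4i1, whose enzyme is induced by IL-4, was at 972 CPM in Sham (831 to 1130) and 1308 CPM in TBI (1156 to 1474) in migratory dendritic-like cells, 5.62 times B cell-like cells. Its log2 ratio was 0.43 (0.15 to 0.71), and no choroid plexus-like cell had it. Il13ra1 was led by dendritic-like cells at 64.7 and 65.3 CPM. Il7 and Il21, the ligands, had 4 and 3 UMIs.

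The ligand-binding chains of the IL-10, IL-6 and IL-3 receptors led in monocyte-like cells over both libraries. Il10ra, the specific IL-10 chain, was at 355 CPM in Sham and 310 CPM in TBI monocyte-like cells and at 236 and 242 CPM in macrophage-like cells. Il10rb, its partner, was at 265 and 280 CPM in macrophage-like cells and was widely spread, since 15.0% of Sham and 18.7% of TBI choroid plexus-like cells had it. Il10 itself had 16 UMIs, 15 of them in macrophage-like cells, 1 in Sham and 14 in TBI, on 335 and 724 cells. Il6ra was at 331 CPM in Sham monocyte-like cells (56 UMIs) and 150 CPM in TBI (28 UMIs), a log2 ratio of -1.13 (-1.86 to -0.47), and was at 107 and 117 CPM in macrophage-like cells. Some markers of the monocyte-like class differed between the libraries as well, with Chil3 at 35.5 and 801 CPM, Ly6c2 at 2047 and 1122 CPM and Ace at 562 and 337 CPM. Closer were Plac8 (1822 and 1956 CPM), Fn1 (734 and 737), Treml4 (189 and 166) and Eno3 (177 and 214). Gngt2 was at 1260 and 919 CPM, Spn at 290 and 192, Vcan at 23.7 and 48.1 and Cd300e at 47.3 and 85.5. The part of these marker differences in the Il6ra and Il1b differences of this class was not tested. Il3ra was at 53.2 and 69.5 CPM in monocyte-like and 42.3 and 58.3 CPM in macrophage-like cells, with gamma-delta or Th17-like cells close by at 93.5 and 42.6 CPM on 4 UMIs in each library, and Il3 had no UMI. Il31ra had 23 UMIs in all, and its leading class, monocyte-like cells, held 0 in Sham and 3 in TBI. Outside the myeloid cells, Il16, a chemoattractant for CD4 cells, was found in most leukocyte classes and was highest in immature B cell-like cells at 433 and 411 CPM. Il5ra, with 28 UMIs, had 26 of them in B cell-like cells.

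For 21 receptors the cells with a UMI of every chain were counted. Of the 19 whose chains are all members, 3 had chains with a common leading class, the IL-7 and IL-9 receptors in ILC2 or Th2-like cells and the IL-23 receptor (Il23r with Il12rb1) in gamma-delta or Th17-like cells. The class with the largest share of cells with all chains was the same in both libraries for 11 of the 21. Some of these classes rest on very few cells or none. For IL-5 (Il5ra with Csf2rb) no TBI cell of a named class had both chains. For IL-1 (Il1r1 with Il1rap) the largest shares were 0.725% of dendritic-like Sham and 1.41% of pericyte-like TBI cells. For IL-25 (Il17ra with Il17rb) they were 4.76% of 21 Sham and 4.44% of 45 TBI plasmacytoid dendritic-like cells. For IL-15 (Il2rb with Il2rg) the class with the largest share was NK-like cells, 82.5% in Sham and 82.4% in TBI, and 36.7% and 34.1% after thinning. For IL-7 (Il7r with Il2rg) it was gamma-delta or Th17-like cells, 9 of 12 in Sham and 24 of 28 in TBI, at median depths of 3733.5 and 3517.5 UMIs. ILC2 or Th2-like cells had both chains in 57.7% and 74.1% of cells, at median depths of 1621 and 2874 UMIs. These IL-7 shares are not at equal depth. For IL-11 (Il11ra1 with Il6st) it was fibroblast-like cells, 26.3% and 23.8%. For IL-6 (Il6ra with Il6st) it was dendritic-like cells, 28.3% and 21.5%, at 0.746% and 1.65% after thinning, since these were the deepest cells at medians of 10964 and 8385 UMIs. For IL-33 (Il1rl1 with Il1rap) no ILC2 or Th2-like cell in Sham and 2 of 139 in TBI had both chains, Il1rap being too sparse at this depth to say more.

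Sham and TBI were next compared in the 7 classes with at least 100 cells in each library, over the members with at least 20 UMIs in the class. A ratio of at least 2-fold was called. Members called higher in TBI numbered 1 of 15 in B cell-like (2.57% of all genes), 1 of 20 in ILC2 or Th2-like (1.74%), 0 of 20 in T cell-like (3.53%), 0 of 21 in dendritic-like (2.14%), 0 of 17 in endothelial-like (3.35%), 1 of 16 in fibroblast-like (4.92%) and 2 of 24 in macrophage-like cells (2.56%). Members called lower numbered 0 in B cell-like (2.2%), 2 in ILC2 or Th2-like (2.92%), 2 in T cell-like (2.04%), 0 in dendritic-like (1.64%), 0 in endothelial-like (1.11%), 1 in fibroblast-like (3.29%) and 0 in macrophage-like cells (1.05%). With counts of 0 to 2 per class, the members' shares cannot be set apart from the background. With 20 UMIs as the minimum and UMIs summed over cells, their median log2 ratios ran from -0.16 in fibroblast-like to 0.20 in endothelial-like cells, beside medians of all genes from -0.04 to 0.03. The fibroblast-like median turned to 0.25 with every cell weighted equally.

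The 5 called higher all had few UMIs in Sham. Il5ra in B cell-like cells had 10 UMIs in Sham and 16 in TBI (log2 ratio 1.12, -0.09 to 2.44). Il21r in ILC2 or Th2-like cells had 5 and 16 (1.31, -0.11 to 3.20). Il15 in fibroblast-like cells had 3 and 44 (1.03, -0.40 to 3.57). In macrophage-like cells Il27 had 2 and 24 UMIs (2.1, 0.38 to 5.52) and Il33 3 and 19 (1.28, -0.30 to 3.87). The interval excluded 0 for Il27 only, whose log2 ratio in its leading class, monocyte-like cells, was -0.15. The macrophage receptor Csf1r had 3 and 94 UMIs in fibroblast-like, 0 and 15 in T cell-like and 0 and 8 in endothelial-like cells. These are raw counts, not scaled to the larger UMI totals of these classes in TBI. The part of stray RNA or doublets in the low counts was not tested.

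Of the 5 called lower, 4 were in lymphocytes. In ILC2 or Th2-like cells Il18r1 had 23 UMIs in Sham and 6 in TBI (-2.13, -3.80 to -0.88), and Il2rb had 25 and 13 (-1.19, -2.31 to -0.20). In T cell-like cells Il6ra had 24 and 17 (-1.16, -2.16 to -0.21), and Il13 is described above. Il3ra in fibroblast-like cells had 6 and 15 (-1.38, -2.76 to 0.34), and 5 of the 6 Sham UMIs came from 1 cell. Without the top cell of each library its ratio changed sign, to 0.48 (-1.73 to 6.42). Il7r in T cell-like cells, below 2-fold but on many UMIs, went from 412 to 217 CPM (219 and 184 UMIs, -0.92, -1.22 to -0.64). Within that class Il7r was at 399 and 220 CPM in cells with Cd4 only. It was at 196 and 189 CPM in cells with Cd8a or Cd8b1 only, and at 606 and 238 CPM in the rest. Of 126 Sham and 212 TBI cells of the class, 38 and 36 had Cd4 only. Those with Cd8a or Cd8b1 only numbered 33 and 62, and the rest 55 and 114. Cd4 in the class was at 145 and 72.0 CPM. The part of this make-up in the ratios of T cell-like cells was not tested. The ratios of the IL-18 receptor chains had opposite signs in T cell-like cells, Il18rap from 39.5 to 72.0 CPM (0.84, 0.13 to 1.66) and Il18r1 from 109 to 68.5 CPM (-0.67, -1.22 to -0.12). Without the top cell of each library they were 0.88 (0.13 to 1.74) and -0.51 (-1.09 to 0.09). The interval of Il18r1 then included 0.

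**Figure D4:**
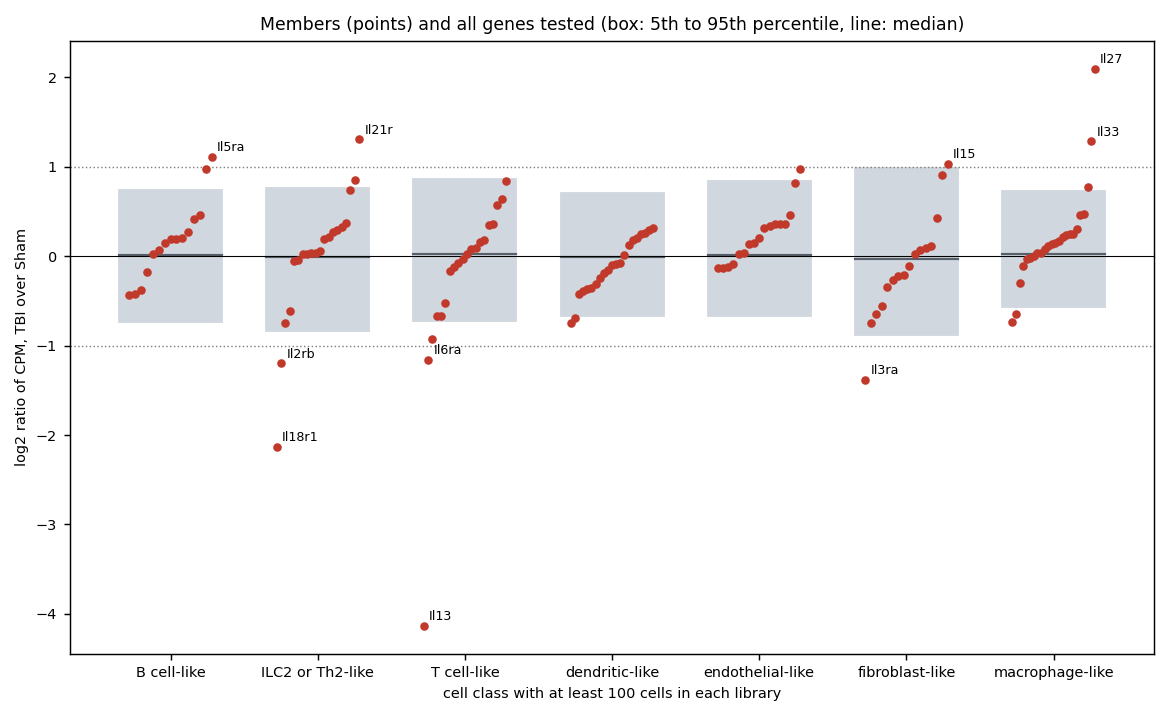
Log2 ratio of CPM, TBI over Sham, of members with at least 20 UMIs (red points) in the 7 cell classes with at least 100 cells in each library, over boxes from the 5th to the 95th percentile of all genes tested and a line at their median. Dotted lines mark 2-fold, and the 10 named points lie at or past them, from Il13 at -4.13 in T cell-like cells to Il27 at 2.1 in macrophage-like cells.

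In their leading classes, 40 members had at least 20 UMIs and at least 1 in each library. Il13, Il12b, Il23r, Il6ra and Il5ra were past 2-fold. Il12b, Il23r and Il6ra led in small classes, of 23 and 29, 12 and 28, and 33 and 41 cells in Sham and TBI. The share of all genes past 2-fold was not taken in these small classes, so their calls have no background beside them. Among those with over 300 UMIs in the class, the interval included 0 for Il1rl1 (-0.04), Il7r (0.03), Il33 (0.11), Il11ra1 (0.07) and Il10rb (0.08), and lay above 0 for Il6st (0.34), Il4i1 (0.43) and Il2rg (0.22, 0.01 to 0.44). Il2rb was at -0.20, its interval reaching 0.

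**Figure D5:**
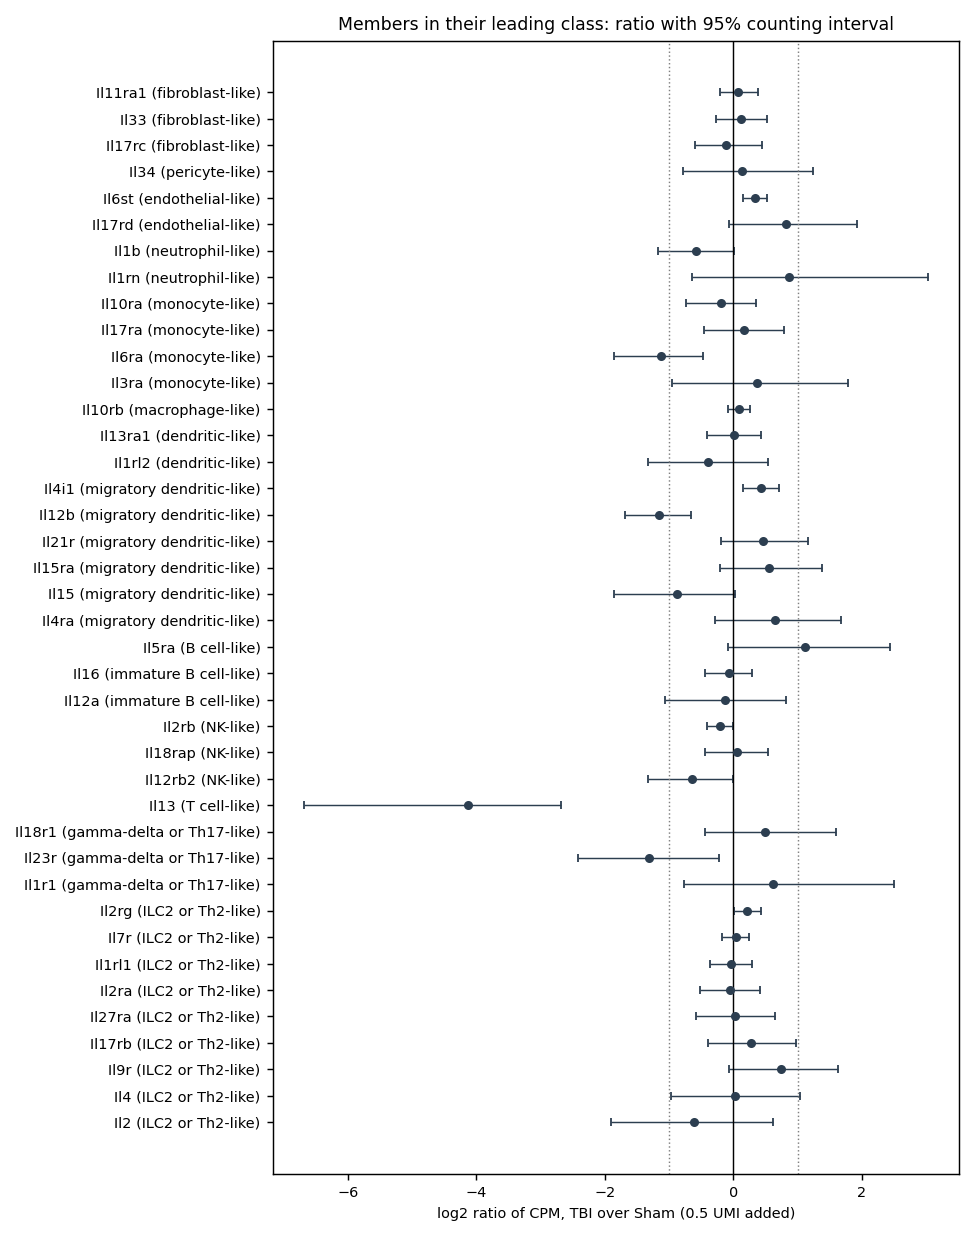
Log2 ratio of CPM, TBI over Sham, of the 40 members with at least 20 UMIs in their leading class and some in each library (points), with 95% counting intervals (lines) and dotted lines at 2-fold. Most intervals cover 0, and those of Il6st at 0.34, Il4i1 at 0.43 and Il2rg at 0.22 lie above it while those of Il12rb2 at -0.65, Il6ra at -1.13, Il12b at -1.16, Il23r at -1.31 and Il13 at -4.13 lie below it.

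Of 32 genes that act with interleukin receptors (partner chains and related ligands, kinases, STAT factors and feedback inhibitors), 20 to 27 had at least 20 UMIs in a class. In fibroblast-like cells 3 of 21 were called higher in TBI, beside 4.92% of all genes. They were Socs3, a feedback inhibitor of gp130 signalling, with 0 and 39 UMIs, Csf1r with 3 and 94, and Tslp, an alarmin, with 1 and 19. All 3 had few UMIs in Sham, where the class held 360787 UMIs against 2240782 in TBI. The part of stray RNA or doublets in the Csf1r count was not tested. In macrophage-like cells 2 of 26 were called higher, beside 2.56% of all genes, and none lower. They were Osm, a gp130 cytokine, at 3.91 and 12.8 CPM (1.61, 0.48 to 3.23) and Socs3 at 9.11 and 18.8 CPM (1.00, 0.20 to 1.99). In ILC2 or Th2-like cells Irak4 was called higher (1.06) and Stat6 lower (-1.15) of 20, and in T cell-like cells Irak2 higher (1.2) and Ebi3 lower (-1.24) of 22. None of 22 in B cell-like, 27 in dendritic-like and 24 in endothelial-like cells was called. The dissociation-induced genes had a median log2 ratio of 0.51 in fibroblast-like cells, beside -0.04 for all genes, and 3 of 12 were called higher. Their part in the Socs3 difference was not tested.

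The 16 members with 1 to 19 UMIs comprised 10 ligands, of which Il10, Il1f9, Il7, Il21, Il6, Il11, Il5 and Il17b are given above and Il1a and Il25 had 3 and 2 UMIs. They also comprised the receptor chains Il22ra1, Il20ra and Il1rapl1, the decoys Il22ra2 and Il13ra2, and Il1bos. The 18 members at 0 were 13 ligands (Il3, Il9, Il17c, Il17f, Il19, Il20, Il22, Il23a, Il24, Il31, Il1f6, Il1f8 and Il1f10), the 3 Il11ra2 features and Il1rapl2 among the receptors, and the antagonist Il1f5. A count of 0 allowed up to 0.381 CPM over all Sham cells and 0.215 CPM over all TBI cells, and up to 70.1 and 31.9 CPM in the small gamma-delta or Th17-like class.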

How the data were processed

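Meningeal cells of 1 Sham and 1 TBI library (10x Genomics 3' version 2 kit, a pool of 5 mice each) were read as the UMI counts the authors deposited, raw whole numbers per gene and barcode, built on mm10 with Cell Ranger. The submitters' processing notes name version 2.1.1 and the file headers 3.1.0. The depth was 9527334 UMIs over 2699 Sham barcodes and 15011079 over 4349 TBI barcodes.

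Following the study's limits, cells with 150 to 5000 genes, at most 20% mitochondrial and at most 5% hemoglobin UMIs were kept. The 2000 most variable genes other than Il genes, 20 components and 20 neighbours gave Leiden clusters at resolution 0.8 (scanpy 1.11.5, leidenalg 0.10.2, Python 3.11.15). A cluster took a class name if its top 100 genes by fold held 3 or more of that class's markers, a rule set after the clusters had been seen. UMIs were summed per library and class. Ratios have 0.5 added to each sum and exact binomial 95% intervals, shares Clopper-Pearson intervals and CPM exact Poisson intervals (scipy 1.17.1), and all cover counting error only. A feature needed 20 UMIs, and 2-fold was called. Groups of 1 library allow no test, and the study's model, in which cells are replicates, was not used. Floors are 3 counts. Shares were also taken with each cell thinned to 1000 UMIs. Doublets were predicted, at 0.8% per 1000 cells, and left in. All members with 20 UMIs are described, and of the partner list those past 2-fold. Members, lists and marker genes were chosen with earlier results of these data known. The ratio intervals were also tried on simulated Poisson counts. Those counts lack the piling of UMIs in single cells, so coverage in these data was not tested. Alternatives varied the cell limits, clustering, classes, scaling, minimum count and top cells. Antisense and near-identical genes may share reads. Promoters come from RefSeq.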

Additional observations from a re-analysis of the deposited data

Results flagged for a closer look

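Member transcripts also lay outside the cells described. Barcodes that failed the cell limits held 674 member UMIs, 321 over 656 Sham barcodes (0.0193% of their UMIs) and 353 over 576 TBI barcodes (0.0330%), above the limit that a count of 0 allows. Il2rg (78), Il10rb (53), Il6st (51) and Il7r (50) gave most of them.

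Cells of the unnamed clusters held 458 member UMIs, which enter no comparison between classes. Il10ra (90), Il6ra (42) and Il10rb (41) gave most of them.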

How the results depend on the processing

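No paired analysis was possible because each group has 1 library, and for the same reason no replicate could be left out. The 81 median log2 ratios of the members and 67 of the partner genes stayed within the median of the single genes' intervals, a wide bar: in fibroblast-like cells the members' median of -0.16 turned to 0.25 and the partner genes' 0.06 became 0.61 when each cell had equal weight, the members' became 0.05 with a minimum of 50 UMIs, and in endothelial-like cells the members' 0.20 became 0.48 with a minimum of 1 UMI. The 12 members with 1 leading class became 26 when 2 times the next class was asked for, and stayed within 1.5 times under the other 10 alternatives. Over the 7 large classes, the 5 members called lower in TBI became 3 without the hemoglobin limit and with Il genes allowed in the clustering, 2 with each cell assigned by its own markers, 0 with a minimum of 50 UMIs and 45 with a minimum of 1 UMI. The 5 called higher became 0 with a minimum of 50 UMIs and 47 with a minimum of 1 UMI. The causes were not tested, except that the minimum itself sets how many low members are counted. Of 555 log2 ratios in leading classes, 547 stayed inside their counting interval and 8 left it, Il4i1 among them with a lowest value of 0.11. Among these leading-class ratios none past 2-fold changed sign, but smaller ones did, such as Il18r1 (-0.70 to 0.62), Il4ra (-0.38 to 0.74) and Il17d (-0.66 to 0.76). Of the 5 past 2-fold with at least 20 UMIs in the class and some in each library, Il13 (-4.17 to -0.69), Il12b (-1.42 to -0.55), Il23r (-1.49 to -0.68), Il6ra (-1.18 to -0.76) and Il5ra (0.97 to 1.33) each fell below it under at least 1 alternative. Of 204 shares of cells, 158 moved when cells were thinned to 1000 UMIs or at least 2 UMIs were asked for. Leaving out cells with at least 3 mast cell markers and cells whose barcode was in both libraries, an alternative added after seeing the data, moved none of these results. Depth limits the small classes most, where a count of 0 allowed up to 99.2 CPM in the 13 pineal gland-like Sham cells.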
